A study of Mus musculus with 6 samples.

Results

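The genes described here were 40 antioxidant and NRF2 target genes, taken by symbol from the 52550 genes of the count table, and each of the 40 symbols matched 1 gene. They comprise 3 regulators (Nfe2l2, Nfe2l1 and Keap1), 3 heme and quinone enzymes, 13 genes of the glutathione system, 12 of the thioredoxin system, 5 that make or remove superoxide and peroxide and 4 that supply NADPH. RNA was sequenced from wild-type (WT) mouse splenic CD3+ T cells in primary culture, in 3 samples activated through the TCR with anti-CD3/CD28 for 24 h (TCR alone) and in 3 samples activated in the same way with DMGV at 100 ng/ml (TCR+DMGV). The study's legend for what appears to be the same experiment names the agent LNY1, a factor that the study traced to the methylated arginines from which DMGV is made, so the agent is called DMGV here only because the sample labels do so. All 6 samples shared the WT genotype, the activation and the harvest time, and no unactivated sample was analysed here, so the values say nothing of what activation did to these genes. The labels give neither the strain nor the age of the mice.

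NRF2, the protein of Nfe2l2, is a transcription factor that is held by KEAP1 and degraded while the cell is unstressed. Oxidants and electrophiles modify cysteines of KEAP1, NRF2 then escapes degradation, pairs with a small MAF protein and binds antioxidant response elements near genes for glutathione synthesis, thioredoxin recycling and NADPH supply. In T cells reactive oxygen formed after TCR engagement acts as a signal, and the glutathione and thioredoxin systems keep it within limits that dividing cells tolerate.

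The summed counts were 37758725, 41593014 and 40327431 in TCR alone replicates 1, 2 and 3, and 43587243, 43718867 and 40492457 in TCR+DMGV replicates 1, 2 and 3, so depth was alike across samples. TCR alone replicate 3 and TCR+DMGV replicate 1 stood apart from the other samples. On the first principal component of all tested genes, which held 32.2% of the variance, they scored 42.1 and 42.9, whereas the other 4 samples scored between -34.9 and -10.5. One such sample lay in each group, and shifts of over 0.15 on the log2 scale without them are given below. T cell markers were high in every sample, with summed CPM (counts scaled to TMM-normalised library size) from 3264 to 3795 over 12 of 12 markers detected, and the most abundant was Trac at a mean of 432 FPKM (fragments scaled to transcript length and library depth). Of 10 neutrophil markers, which matter here because phagocytes are rich in NADPH oxidase, 9 had no count in any sample (S100a8, S100a9, Ly6g, Camp, Ngp, Retnlg, Mpo, Elane and Mmp8), and the list summed to at most 0.105 CPM. The 10 macrophage and monocyte markers summed to between 10.9 and 15.03 CPM, with Cd14 at 0 in all samples and Csf1r highest at 1.42 FPKM, and the 8 B cell markers summed to between 8.48 and 11.7 CPM, led by Cd79b at 3.85 FPKM. The 8 dendritic cell markers, led by Batf3 at 2.30 FPKM and with Siglech, Clec9a and Cd209a at 0, summed to between 10.1 and 15.3 CPM, and the 8 erythroid markers, led by Hbb-bs at 1.39 FPKM and with Epb42 at 0, summed to between 2.36 and 5.37 CPM. The 6 NK cell markers summed to between 71.7 and 83.8 CPM, led by Eomes, which activated T cells also express, at 13.2 FPKM, and the 5 platelet markers to between 0.843 and 1.51 CPM, led by Pf4 at 0.156 FPKM. In bulk RNA of this kind, fewer cells of a type and less RNA per cell cannot be told apart.

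The antioxidant genes were a well expressed set in both groups. By mean FPKM over the 6 samples, 5 of the 40 exceeded 100 FPKM, 20 lay between 10 and 100 FPKM, 10 between 1 and 10 FPKM, and 5 under 1 FPKM. The highest level was that of Sod1, the cytosolic copper-zinc superoxide dismutase, at 248 FPKM, followed by the cytosolic thioredoxin Txn1 at 198 FPKM. Prdx1 and Prdx3, the most abundant peroxiredoxins, had 113.5 and 113.1 FPKM, with sample ranges of 66.0 to 137 and 101 to 130 FPKM that overlapped, so the order of this pair was not resolved. Tkt, the transketolase of the pentose phosphate pathway, at 109 FPKM, the glutathione transferase Gstp1 at 91.7 FPKM and the lipid peroxide-reducing Gpx4 at 66.5 FPKM came next by mean. The sample range of Tkt, 89.3 to 125 FPKM, overlapped those of both peroxiredoxins and of Gstp1 (78.1 to 99.2 FPKM), so its place was not resolved either. At the low end stood Nqo1, the quinone reductase widely used as an NRF2 target, with a mean of 0.0465 FPKM and no count in 3 of the 6 samples, the cystine carrier Slc7a11 at 0.0602 FPKM, and Cybb at 0.102 FPKM.

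**Figure D1:**
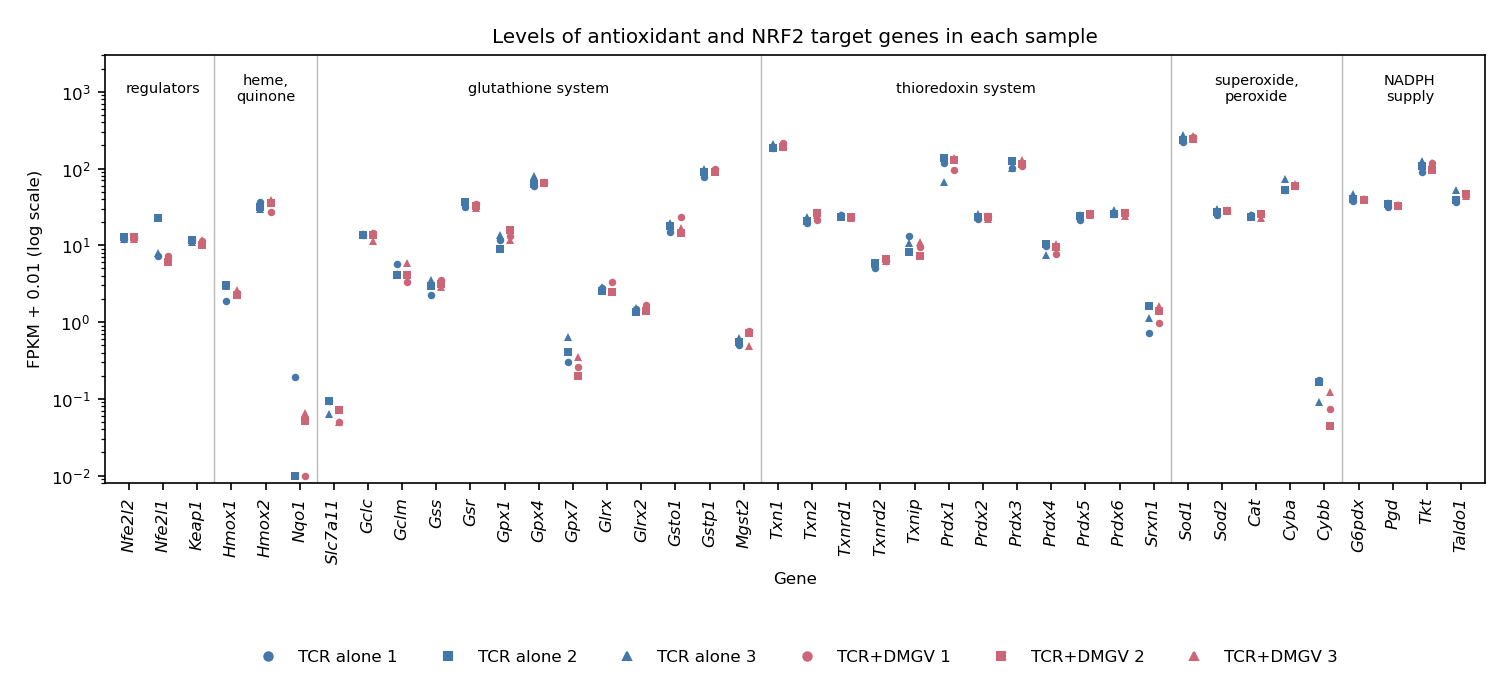
Level of each of the 40 genes in each sample, as FPKM + 0.01 on a log axis, grouped by role, with TCR alone in blue, TCR+DMGV in red and replicates 1, 2 and 3 as circle, square and triangle. Points of the 2 groups lie on top of each other for most genes, while Nfe2l1 and Prdx1 each have a sample that stands off.

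The comparison of TCR+DMGV with TCR alone asked whether this antioxidant set differed with the agent at 24 h. None of the 39 genes that passed the filter on low counts (all but Nqo1) was called by edgeR's quasi-likelihood test at an adjusted p under 0.05, and the smallest adjusted p among them was 0.9995. Across all 14786 genes tested 2 were called, or 0.0135%, so the absence of calls among 39 genes is near what the whole table gives. At an unadjusted p under 0.05 the count was 0 of 39, beside 3.19% of all tested genes, and DESeq2 and limma called none of the 39 after adjustment either. No overlap between the groups in CPM was seen for 4 of the 39 (10.3%), against 8.86% of all tested genes, a share near the background. Higher means in TCR+DMGV were seen for 24 genes and lower means for 15, with a median log2 fold change of 0.036, where the median of all genes tested was 0.0024 and 50.6% of them were higher. The count of higher genes rested in part on a control sample: TCR alone replicate 1 was the lowest of the 6 samples for 20 of the 39 genes (51.3%, against 21.8% of all tested genes), and without it 16 of the genes were higher. Without the pair of samples that stood apart none of the 39 genes was called either, but the log2 fold change shifted by over 0.15 in 9 genes. It went up in 7, Gpx7 (-0.68 to -0.28), Cyba (0.03 to 0.22), Gpx1 (0.26 to 0.43), Srxn1 (0.23 to 0.40), Taldo1 (0.10 to 0.26), Gpx4 (-0.03 to 0.14) and Txn2 (0.23 to 0.39). It went down in 2, Nfe2l1 (-0.95 to -1.26) and Cybb (-0.94 to -1.11).

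The precision was enough to bound most of these changes. The 95% interval of the log2 fold change lay within 1 of zero, that is, within a 2-fold change either way, for 34 of the 39 genes (87.2%, against 73.2% of all tested genes), and within 0.5 for 25 of them (64.1%, against 46.7%). The exceptions to the wider bound were Nfe2l1, Slc7a11, Gpx7, Srxn1 and Cybb.

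**Figure D2:**
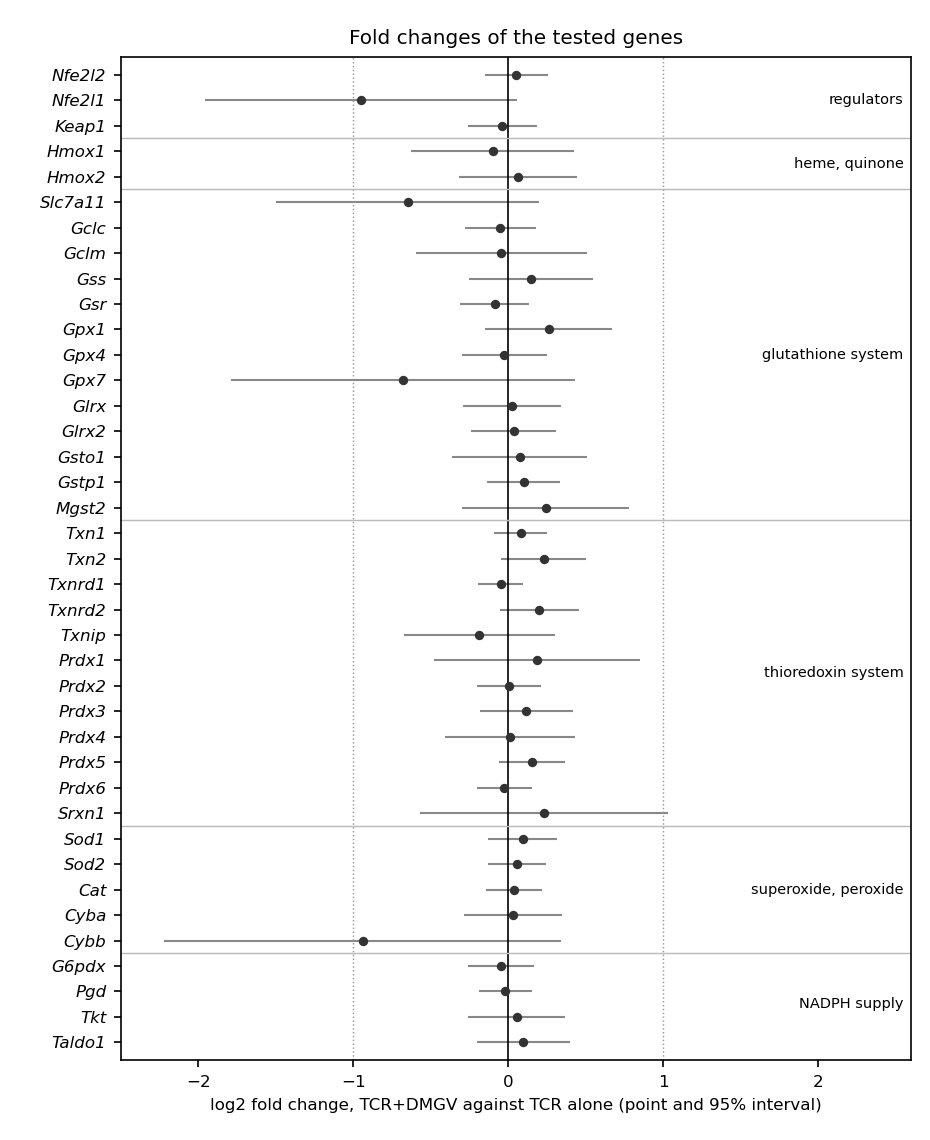
Log2 fold change of TCR+DMGV against TCR alone for the 39 tested genes (point) with its 95% interval from edgeR's quasi-likelihood fit (line), grouped by role, with dotted lines at a 2-fold change. Every interval includes zero, and 34 lie between the dotted lines.

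Among the regulators, Nfe2l2 was steady. Its CPM was 51.3, 55.3 and 49.7 in TCR alone and 53.5, 56.3 and 52.3 in TCR+DMGV. The groups overlapped, and the log2 fold change was 0.05 ± 0.09 (SE), with an interval from -0.15 to 0.25. Keap1, the inhibitor of NRF2, ranged from 54.8 to 64.1 CPM over the 6 samples, with a log2 fold change of -0.04 ± 0.09. The ratio of the 2 levels, Nfe2l2 over Keap1 in FPKM, was 1.06 ± 0.0291 (SD, n = 3) in TCR alone and 1.13 ± 0.132 in TCR+DMGV, with overlap.

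Nfe2l1, which encodes the related factor NRF1 known for the control of proteasome genes, had the largest difference in the whole set, and it came from 1 sample. Its CPM was 44.5, 140 and 47.3 in TCR alone and 42.9, 37.6 and 39.3 in TCR+DMGV. All 3 TCR+DMGV samples lay below all 3 TCR alone samples, but TCR alone replicate 2 was about as far above the other controls as above the treated samples. The log2 fold change was -0.95 ± 0.43 (SE; interval -1.96 to 0.05; unadjusted p = 0.0606 and adjusted p = 0.9995 by edgeR's quasi-likelihood test), and without TCR alone replicate 2 it was -0.20. The excess sat in the transcript Nfe2l1-201, whose counts were 668, 5255 and 906 without the agent and 794, 1445 and 1060 with it. For the shorter Nfe2l1-204 the counts were 826, 0 and 897 without and 897, 126 and 265 with the agent, so it was lowest where Nfe2l1-201 was highest in each group.

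**Figure D3:**
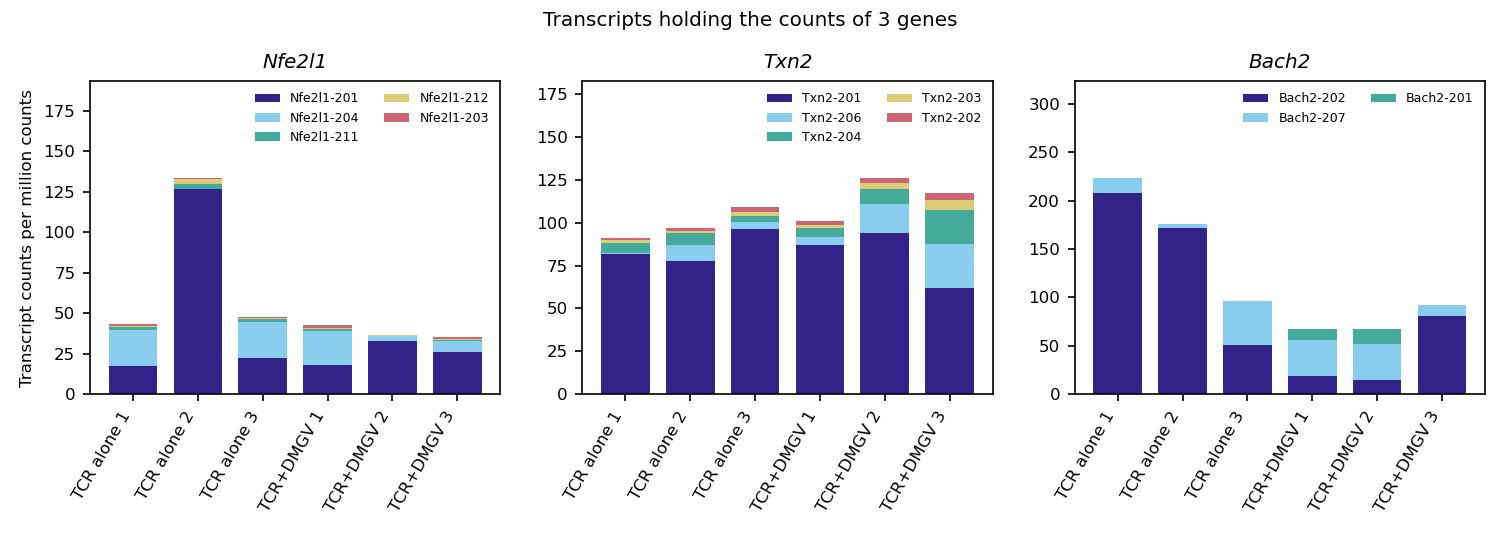
Transcript counts, scaled to the summed gene counts of the sample (vertical axis), for Nfe2l1, Txn2 and Bach2 in each sample, stacked by transcript for up to 5 transcripts with most counts. The Nfe2l1 bar of TCR alone replicate 2 is nearly all Nfe2l1-201, and Bach2-202 holds the most Bach2 counts in 4 of the 6 samples.

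Of the heme and quinone enzymes, the constitutive heme oxygenase Hmox2 was far above the inducible Hmox1, a classic NRF2 target, with mean levels of 33.3 and 2.53 FPKM. Hmox2 had 91.8, 80.2 and 72.4 CPM in TCR alone and 66.7, 89.1 and 99.6 CPM in TCR+DMGV. Hmox1 had 3.69, 6.15 and 5.70 CPM in TCR alone and 4.67, 4.46 and 5.35 CPM in TCR+DMGV. In both genes the lower and the higher samples were spread over the 2 groups, and the log2 fold changes were 0.06 ± 0.16 and -0.10 ± 0.22 (SE). With 1 sample left out, they ran from -0.06 to 0.21 for Hmox2 and from -0.31 to 0.03 for Hmox1. Nqo1 had 0.316, 0 and 0 CPM in TCR alone and 0, 0.0929 and 0.101 CPM in TCR+DMGV, too little to test. Hmox2 overlaps Cdip1 on the opposite strand, and whether the counting used strand is not stated.

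The 13 genes of the glutathione system divided into 7 with a higher and 6 with a lower mean, with a median log2 fold change of 0.02, and none had groups that did not overlap. Gstp1, which conjugates glutathione to electrophiles, was the most abundant of them. Its CPM was 65.9, 78.7 and 81.4 in TCR alone and 82.8, 77.7 and 81.7 in TCR+DMGV, with TCR alone replicate 1 low and the other samples close together. The near-identical copy Gstp2 had 4.21 CPM in TCR alone replicate 1, 0.719 CPM in TCR+DMGV replicate 1 and none in the other samples, so the values of this pair are uncertain to that extent.

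Glutathione synthesis starts with glutamate-cysteine ligase, whose catalytic subunit Gclc ranged from 49.7 to 59.8 CPM, with a log2 fold change of -0.05 ± 0.10 (SE). Its modifier subunit Gclm was more variable, from 23.4 to 42.7 CPM with both extremes in TCR+DMGV, and its log2 fold change was -0.05 ± 0.23. Gclm overlaps Gm17494 on the opposite and Gm6061 on the same strand. The log2 fold change of Gss, the second enzyme of the pathway, was 0.15 ± 0.17, and that of the glutathione reductase Gsr was -0.09 ± 0.09. Of the glutathione peroxidases, Gpx4 had a log2 fold change of -0.03 ± 0.12 and the cytosolic Gpx1 one of 0.26 ± 0.17. Leaving out 1 sample at a time, the Gpx1 value ran from 0.12 without TCR alone replicate 2 to 0.40 without TCR alone replicate 3. For the glutaredoxins Glrx and Glrx2 the values were 0.02 ± 0.13 and 0.04 ± 0.12, and for the glutathione transferases Gsto1 and Mgst2 they were 0.07 ± 0.18 and 0.24 ± 0.23. With 1 sample left out, Gsto1 ran from -0.13 to 0.21 and Mgst2 from 0.13 to 0.40.

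The widest intervals in the glutathione system belonged to genes near the detection limit. Gpx7, a peroxidase of the endoplasmic reticulum, had 0.421, 0.588 and 0.894 CPM in TCR alone and 0.360, 0.302 and 0.530 CPM in TCR+DMGV. The groups overlapped, and the log2 fold change was -0.68 ± 0.47 (SE; interval -1.79 to 0.43), or -0.34 without TCR alone replicate 3. Slc7a11 was similar, at 0.629 to 1.35 CPM with a log2 fold change of -0.65 ± 0.36 (interval -1.50 to 0.20), so that for these genes a 2-fold decrease was within the interval.

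In the thioredoxin system 9 of 12 genes had a higher mean in TCR+DMGV and 3 a lower one, with a median log2 fold change of 0.10. Without TCR alone replicate 1 the median was 0.03, and Prdx2 and Srxn1 turned to -0.07 and -0.04. Txn1, which reduces protein disulfides in the cytosol, had 219, 222 and 241 CPM in TCR alone and 248, 230 and 243 CPM in TCR+DMGV. The groups overlapped, and the log2 fold change was 0.08 ± 0.07 (SE; interval -0.09 to 0.25). Its reductase Txnrd1, also an NRF2 target, had 195, 191 and 191 CPM in TCR alone and 184, 186 and 187 CPM in TCR+DMGV. These groups did not overlap, but they were separated by a small step, with a log2 fold change of -0.05 ± 0.06 (interval -0.20 to 0.10), and Txnrd1 was the least variable of the 39 genes, with the highest sample 1.06 times the lowest.

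The mitochondrial partners had higher means in TCR+DMGV. Txnrd2, which recycles mitochondrial thioredoxin, had 24.9, 30.2 and 28.1 CPM in TCR alone and 30.3, 33.9 and 31.3 CPM in TCR+DMGV. The lowest TCR+DMGV sample was just above the highest TCR alone sample, and the log2 fold change was 0.20 ± 0.11 (SE; interval -0.05 to 0.45), or 0.11 without TCR alone replicate 1. Txn2, the mitochondrial thioredoxin itself, had 90.8, 99.5 and 107 CPM in TCR alone and 98.9, 128 and 120 CPM in TCR+DMGV. Its groups overlapped through TCR+DMGV replicate 1, with a log2 fold change of 0.23 ± 0.12 (SE; unadjusted p = 0.0912 by edgeR's quasi-likelihood test), and without both samples that stood apart it was 0.39, also not called after adjustment. It was 0.15 without TCR alone replicate 1 and also without TCR+DMGV replicate 2. By transcript, unscaled counts of the main form, Txn2-201, overlapped: controls ran from 3090 to 3889 and treated samples from 2500 to 4108. Its lowest sample, TCR+DMGV replicate 3, had the most Txn2-206 (1038) and Txn2-204 (822). Txn2-206 ran from 30 to 408 for controls and from 210 to 1038 for treated samples. The higher mean of Txn2 thus did not rest on Txn2-201 alone. Across the 2 compartments, the FPKM ratio of Txnrd1 to Txnrd2 was 4.37 ± 0.497 (SD, n = 3) in TCR alone and 3.65 ± 0.199 in TCR+DMGV, without overlap, while that of Txn1 to Txn2 was 9.22 ± 0.386 and 8.43 ± 1.47, with overlap. Of all the ratios taken between partner genes of the set, only that of Txnrd1 to Txnrd2 had groups that did not overlap. Both of its genes had already been seen not to overlap in CPM, in opposite directions, so this ratio is not a separate result.

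All 5 genes whose products work mainly in mitochondria (Txn2, Txnrd2, Prdx3, Sod2 and Glrx2) had a higher mean in TCR+DMGV, with a median log2 fold change of 0.12 and a range of 0.04 to 0.23, yet none was called. The direction was not stable in each of the 5, since Sod2 was -0.02 without TCR alone replicate 1, and Glrx2 was -0.05 without TCR+DMGV replicate 1 and -0.003 without TCR alone replicate 2. Sod2, the manganese superoxide dismutase of the matrix, had 107 to 124 CPM and a log2 fold change of 0.06 ± 0.08 (SE). TCR alone replicate 1 was low for this group, with a median deviation of -0.17 from the 6-sample mean on the log2 scale, where the other 5 samples lay between -0.001 and 0.08. Without TCR alone replicate 1 the median log2 fold change of the 5 genes was 0.04, and without TCR alone replicate 2 it was 0.23.

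The peroxiredoxins reduce hydrogen peroxide, most of them with electrons from thioredoxin. Prdx1 was singled out after its values were seen, and its CPM was 401, 474 and 220 in TCR alone and 317, 450 and 479 in TCR+DMGV. The low samples were the pair that stood apart, 1 in each group, so the log2 fold change of 0.18 ± 0.28 (SE) had a wide interval, from -0.48 to 0.85, and without that pair it was 0.09. A fit with a term for the pair gave 0.23 (unadjusted p = 0.0672 by edgeR's quasi-likelihood test), and leaving out 1 sample gave values from -0.07 (without TCR alone replicate 3) to 0.42 (without TCR alone replicate 2). Prdx4, the endoplasmic reticulum form, was lowest in the same samples, at 17.5 and 17.8 CPM against 22.6 to 25.4 CPM in the others. The log2 fold change was 0.12 ± 0.13 for the mitochondrial Prdx3, 0.001 ± 0.09 for the cytosolic Prdx2 and -0.03 ± 0.08 for Prdx6, which uses glutathione.

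Prdx5, found in mitochondria, peroxisomes and the cytosol, was the only peroxiredoxin whose groups did not overlap. Its CPM was 50.6, 58.2 and 58.6 in TCR alone and 61.5, 62.4 and 61.9 in TCR+DMGV. The 3 treated samples were nearly equal and just above the controls, with a log2 fold change of 0.15 ± 0.09 (SE; interval -0.06 to 0.36), which was 0.07 without TCR alone replicate 1. Prdx5 overlaps Trmt112 on the opposite strand. Srxn1, the sulfiredoxin that restores overoxidised peroxiredoxins, had 2.26, 5.17 and 3.48 CPM in TCR alone and 3.03, 4.53 and 5.25 CPM in TCR+DMGV. Replicate 1 was lowest in both groups, and the log2 fold change was 0.23 ± 0.34, or 0.56 without TCR alone replicate 2. Txnip, the inhibitor of thioredoxin that also responds to glucose, ranged from 25.8 to 46.02 CPM, with a log2 fold change of -0.19 ± 0.21.

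**Figure D4:**
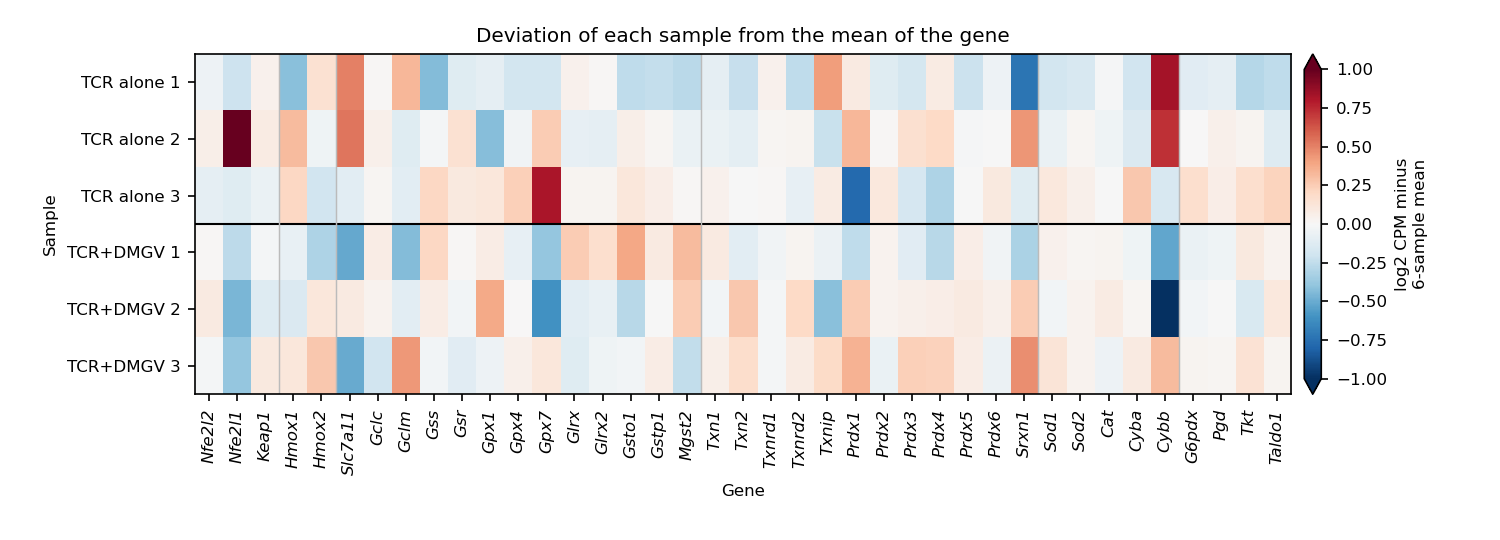
Deviation of each sample (rows) from the 6-sample mean of log2 CPM for the 39 tested genes (columns, grouped by role); red is above and blue below the mean, and the color scale ends at -1 and 1. The row of TCR alone replicate 1 is mostly pale blue, Nfe2l1 is dark red in TCR alone replicate 2, and Prdx1 is blue in TCR alone replicate 3 and TCR+DMGV replicate 1.

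Sod1, Sod2 and Cat, whose products remove superoxide or hydrogen peroxide, had close values in all samples. Sod1 had 158, 172 and 193 CPM in TCR alone and 185, 177 and 196 CPM in TCR+DMGV. The groups overlapped, with a log2 fold change of 0.09 ± 0.09 (SE; interval -0.13 to 0.31). Catalase, encoded by Cat, ranged from 69.1 to 75.9 CPM over the 6 samples, with a log2 fold change of 0.04 ± 0.08. The FPKM ratio of Sod1 to Sod2 was 8.81 ± 0.417 (SD, n = 3) in TCR alone and 9.04 ± 0.475 in TCR+DMGV, with overlap.

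The 2 subunits of flavocytochrome b558, the membrane core of the phagocyte NADPH oxidase, were at very different levels. Cyba, which also partners other oxidases, had a mean of 60.1 FPKM and a log2 fold change of 0.03 ± 0.13 (SE). Cybb, the catalytic subunit, was 0.102 FPKM, with 1.11, 1.03 and 0.532 CPM in TCR alone and 0.404, 0.232 and 0.757 CPM in TCR+DMGV. The groups overlapped through TCR+DMGV replicate 3, and the log2 fold change was -0.94 ± 0.55 (interval -2.22 to 0.34). It was -0.61 without TCR+DMGV replicate 2 and -1.47 without TCR+DMGV replicate 3 (unadjusted p = 0.0435 by edgeR's quasi-likelihood test, not called after adjustment). Among other oxidase genes, the cytosolic subunits Ncf1 and Ncf4 had 9.97 and 11.5 FPKM and the hematopoietic GTPase Rac2 had 159 FPKM, whereas Nox3, Nox4, Noxa1, Duox1 and Duox2 had no count in any sample.

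Both systems draw on NADPH, which G6pdx and Pgd make in the oxidative branch of the pentose phosphate pathway, while Tkt and Taldo1 act in its non-oxidative branch. The log2 fold changes of these 4 genes lay between -0.05 and 0.10. That of G6pdx, the entry enzyme, was -0.05 ± 0.09 (SE), and that of Pgd, the next dehydrogenase in the pathway, was -0.02 ± 0.07. Tkt had 732, 913 and 1005 CPM in TCR alone and 958, 804 and 986 CPM in TCR+DMGV. Taldo1, the transaldolase, had 89.5, 97.4 and 124 CPM in TCR alone and 109, 115 and 109 CPM in TCR+DMGV. TCR alone replicate 1 was the lowest sample for both genes, the groups overlapped, and the log2 fold changes were 0.05 ± 0.13 and 0.10 ± 0.13. Without TCR alone replicate 1 they were -0.08 and -0.02, and the median of the 4 genes went from 0.02 to -0.09. Without TCR alone replicate 3 the value of Taldo1 was 0.25 (unadjusted p = 0.0193 by edgeR's quasi-likelihood test, not called after adjustment). G6pdx overlaps Ikbkg on the opposite strand, as do Gss with Acss2, Gsto1 with Cfap43, Prdx2 with Junb, Sod1 with Scaf4, Txnip with Gm15441 and Keap1 with Gm16754.

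Of 14 genes in the set that are textbook NRF2 targets (Hmox1, Nqo1, Slc7a11, Gclc, Gclm, Gsr, Txn1, Txnrd1, Prdx1, Srxn1, G6pdx, Pgd, Tkt and Taldo1), 13 could be tested, 5 were higher and 8 lower, and their median log2 fold change was -0.05. Without TCR alone replicate 3 and TCR+DMGV replicate 1, the samples that stood apart, the median was 0.055. The core of the antioxidant response element, searched as TGACNNNGC on both strands (read as GCNNNGTCA on the other), was found in a promoter window of 8 of the 36 members with a window in RefSeq (22.2%, against 14.0% of all genes with one), where a window runs from 250 bases before to 50 bases after a transcript start. Counted by window, 8 of the 52 windows of members held the core (15.4%), against 12.4% of all windows. No window was given for Hmox1, Gclc, Gsr and Prdx6. The 6 matches that lie upstream of the start are shown so that the values above can be read beside the element itself. They are from RefSeq on GRCm38.p6, 5′ to 3′ on the strand of the gene, with the core in capitals and up to 20 bases on either side.
G6pdx: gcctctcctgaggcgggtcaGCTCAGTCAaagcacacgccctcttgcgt
Gclm: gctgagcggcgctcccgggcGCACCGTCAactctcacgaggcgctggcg
Nfe2l2: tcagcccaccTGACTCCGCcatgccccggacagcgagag
Prdx1: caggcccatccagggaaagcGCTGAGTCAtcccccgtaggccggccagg
Sod1: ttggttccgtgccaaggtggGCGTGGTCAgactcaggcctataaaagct
Txnrd1: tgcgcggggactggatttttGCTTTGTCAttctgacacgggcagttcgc

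These stretches lie at chrX:74428909-74428957 (minus strand) for G6pdx, chr3:122245403-122245451 (plus) for Gclm, chr2:75704875-75704913 (minus) for Nfe2l2, chr4:116685446-116685494 (plus) for Prdx1, chr16:90220686-90220734 (plus) for Sod1 and chr10:82859094-82859142 (plus) for Txnrd1. The core begins at -57, -134, -240, -133, -56 and -92, in the same order, relative to the transcript start. The Prdx1 core also contains the AP-1 motif TGACTCA, read on the other strand, and this motif alone was present in 5.20% of all windows. Pgd and Srxn1 held the core just after the start and are only named. The log2 fold changes of the 8 genes with the core ran from -0.05 in Txnrd1 to 0.23 in Srxn1, and a match of letters does not show that NRF2 was bound there.

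Beyond the 40 genes, 99 others of the same pathways were listed and 80 could be tested. None was called by edgeR's quasi-likelihood test, 43 were higher and 37 lower, the median log2 fold change was 0.03, and 4 of the 80 had an unadjusted p under 0.05, beside the 3.19% of all tested genes. By role, the median log2 fold changes were -0.03 for 10 NRF2 partners and repressors, 0.05 for 9 further NRF2 targets, 0.08 for 21 further glutathione genes, -0.06 for 17 thioredoxin fold and methionine sulfoxide genes, -0.07 for 9 NADPH oxidase and superoxide genes and -0.10 for 14 further NADPH enzymes. The ferritin genes Fth1 and Ftl1, NRF2 targets that store iron, had 283 and 223 FPKM and log2 fold changes of 0.04 ± 0.08 and 0.18 ± 0.13 (SE).

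Bach2, a repressor that competes with NRF2 for MAF partners and restrains effector differentiation of T cells, had the smallest p of the wider list. Its CPM was 222, 179 and 94.7 in TCR alone and 66.9, 68.8 and 94.4 in TCR+DMGV. The groups did not overlap, but TCR alone replicate 3 and TCR+DMGV replicate 3 were almost equal. The log2 fold change was -1.11 ± 0.30 (SE; unadjusted p = 0.00749 and adjusted p = 0.9995 by edgeR's quasi-likelihood test), and the adjusted p was 0.0464 by DESeq2, so the call depended on the tool. Over all alternatives the log2 fold change stayed between -1.38 and -0.85, with adjusted p from 0.0464 to 1.

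Most Bach2 counts lay in the transcript Bach2-202, whose counts were 7861, 7152 and 2044 without the agent and 828, 622 and 3290 with it. TCR alone replicate 3 and TCR+DMGV replicates 1 and 2 were low, and in these samples Bach2-207 held 1858, 1620 and 1656 counts, against 562, 152 and 422 in the others. The balance of these transcripts therefore did not follow the groups. Bach2-201 had 504 and 667 counts in TCR+DMGV replicates 1 and 2 (16.9% and 22.5% of the gene) and none in TCR+DMGV replicate 3 or in TCR alone.

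The other 3 genes of the wider list at an unadjusted p under 0.05 had smaller differences, and each had an adjusted p of 0.9995 by edgeR's quasi-likelihood test. Txndc9, a thioredoxin-fold protein, had 69.0, 84.95 and 81.3 CPM in TCR alone and 86.3, 109 and 112 CPM in TCR+DMGV, a log2 fold change of 0.39 ± 0.13 (SE). Idh1, the cytosolic isocitrate dehydrogenase that makes NADPH, had 5.29, 3.97 and 4.35 CPM in TCR alone and 3.08, 3.00 and 3.23 CPM in TCR+DMGV, a log2 fold change of -0.55 ± 0.18. Oplah, which returns 5-oxoproline to glutamate in the glutathione cycle, had 5.42, 5.88 and 6.55 CPM in TCR alone and 7.41, 7.85 and 7.29 CPM in TCR+DMGV, a log2 fold change of 0.34 ± 0.14. In all 3 the groups did not overlap, as in 8 of the 80 genes tested from this list (10.0%, beside the 8.86% of all tested genes).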

How the data were processed

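The authors removed low-quality reads with SOAPnuke 1.5.2, mapped with HISAT2 2.0.4 and quantified with StringTie 1.2.3. They deposited whole-number counts per gene and per transcript, which are not normalized, and FPKM values scaled to length and depth. The summed counts exceed the read depth the labels give, and how they were derived from StringTie's coverage is not stated. The submitters' processing notes name mm9, but the identifiers matched GENCODE M21 (GRCm38) for 99.7% of genes. Counts were tested with edgeR 4.0.16 (TMM, filterByExpr, quasi-likelihood test, two-sided, Benjamini-Hochberg adjustment over 14786 genes, threshold 0.05), in R 4.3.3. DESeq2 1.42.0 and limma 3.58.1 on log2(FPKM + 1) were alternatives. A 3 against 3 exact permutation test cannot go below p = 0.1. The p-values measure the spread between samples labelled as biological replicates. On simulated data with 200 genes changed by 1 on the log2 scale, the fit recovered 50.0% of them, and 8.49% of its calls were of unchanged genes. The simulation did not model the pair of samples that stood apart. The 40 genes, the other pathway genes and the marker lists were chosen with earlier results of these data known, and no list was tested. Values in every sample were given for the most abundant gene and the gene of largest fold change in each role, for genes of the 40 whose groups did not overlap, and for other pathway genes at an unadjusted p under 0.05.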

Additional observations from a re-analysis of the deposited data

How the results depend on the processing

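No gene of the set was called in any of 17 alternatives, which covered other size factors, no filter, DESeq2, limma on FPKM, summed transcripts, a replicate block and samples left out. The count at an unadjusted p under 0.05, 0 in the reported fit, was 1 with library size alone (Nfe2l1), 3 with TCR alone replicate 3 and TCR+DMGV replicate 1 both left out (Txn2, Taldo1 and Nfe2l1), and 0 to 2 with 1 sample left out. The number of genes higher in TCR+DMGV was 16 to 25 with 1 sample left out and 20 to 26 otherwise. DESeq2 called 1 of the other pathway genes (Bach2). With both samples that stood apart left out, the median log2 fold change was 0.055 for the textbook NRF2 targets (-0.046 as reported) and 0.062 for the other pathway genes (0.030 as reported). With 1 sample left out, it was 0.041 to 0.227 for the mitochondrial genes and -0.00563 to 0.070 for the other pathway genes. Of 723 values of single genes under the alternatives, 12 moved and 1 gained a call, none reversing a call, and the causes were not tested. Across all genes, calls numbered 2 as reported, 14 by DESeq2, 12 without the samples that stood apart, 0 by limma and 0 with the replicate block, under which 24 genes of the set were higher and none was called. Correlations of deviations between replicates of the same number were -0.154, 0.121 and -0.148. The correlation was 0.310 between TCR alone replicate 3 and TCR+DMGV replicate 1, the samples that stood apart. Because that pair weighs on all these values, they cannot decide whether replicate numbers paired the samples. For Nfe2l1, Gpx7, Slc7a11 and Cybb the interval includes a 2-fold decrease.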

Other observations

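Rac1, a GTPase that serves NADPH oxidases among other roles, had 300 and 270 CPM in replicate 1 of TCR alone and TCR+DMGV, against 111 to 131 CPM in the other 4 samples. Cul3, the ubiquitin ligase scaffold that acts with KEAP1, had 186, 154 and 91.2 CPM in TCR alone and 100, 157 and 141 CPM in TCR+DMGV, with the lowest values in the pair of samples that stood apart. Pgls, the lactonase between G6pdx and Pgd, had 70.7 CPM in TCR+DMGV replicate 2 and 34.6 to 42.4 CPM elsewhere. These 3 genes were chosen after their values were seen.

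Of 7 activation genes none was called by edgeR's quasi-likelihood test (adjusted p = 0.9995 each), but in Mki67 and Nr4a1 the groups did not overlap, as in 8.86% of all tested genes. Mki67, a marker of cycling cells, had 509, 443 and 358 CPM in TCR alone and 297, 322 and 318 CPM in TCR+DMGV, a log2 fold change of -0.48 ± 0.13 (SE; unadjusted p = 0.00634 by edgeR's quasi-likelihood test). Nr4a1, an early TCR response gene, had 215, 208 and 245 CPM in TCR alone and 302, 268 and 262 CPM in TCR+DMGV, a log2 fold change of 0.32 ± 0.09 (unadjusted p = 0.0120 by the same edgeR test). In the other 5 the groups overlapped. Cd69 ranged from 119 to 177 CPM and Il2 from 11.3 to 28.1 CPM. Il2ra ranged from 952 to 1102 CPM over the 6 samples and Myc from 310 to 358 CPM, while Tfrc, which takes up transferrin-bound iron, was 222 and 217 CPM in TCR alone replicate 3 and TCR+DMGV replicate 1 and 395 to 526 CPM in the others. Xist was present in all samples at 266 to 828 CPM, and Ddx3y, Kdm5d, Uty and Eif2s3y had no count in any.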
